A study of Homo sapiens with 12 samples.

Results

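The ISG15 conjugation machinery was taken as 6 genes, ISG15, UBA7, UBE2L6, HERC5, HERC6 and USP18, named by their known roles and matched by symbol to the 58288 genes listed in the expression table. The choice was made with earlier results of these data known, so counts of these genes beside all tested genes are descriptive only. All 6 were listed, and all 6 were among the 15973 genes with at least 1 transcript per 1000000 (TPM) in 3 or more of the 12 libraries, which were the genes tested. The libraries were made from FaDu, an established line of human head and neck squamous cell carcinoma. Every group was grown in the same medium, and its RNA was selected with oligo-dT before sequencing. The 4 groups, with 3 libraries each, were STING WT cells without radiation (0 Gy), STING WT cells after radiation (RT), STING KO cells (genotype STING-/-) without radiation and STING KO cells after radiation. Radiation was 4 daily fractions of 2 Gy, and the time of RNA collection after the last fraction is not given in the sources used here. Per the study's methods, FaDu cells expressing Cas9 were transduced with 1 guide RNA by lentivirus and selected with puromycin, so WT cells carry a non-targeting guide and KO cells a guide against STING. Each genotype is therefore a single line, and a difference between WT and KO cannot be told apart from a difference between those lines. The labels do not say whether the 3 libraries of a group came from separate cultures, so p-values measure only the spread between these libraries, which may be technical.

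ISG15 is a small protein with ubiquitin-like folds that interferons induce strongly. It is joined to lysines of other proteins by a cascade of 3 enzymes: UBA7 is the activating enzyme (E1), UBE2L6 the conjugating enzyme (E2), and HERC5 the main ligase (E3) of human cells, which acts at the ribosome on newly made proteins. HERC6 is the close relative of HERC5 that serves as the ISG15 ligase in mice, and USP18 is the protease that removes ISG15 and also dampens signalling from the type I interferon receptor. STING senses cyclic dinucleotides made in response to DNA in the cytosol, and signals through TBK1 and IRF3 to interferon genes and interferon-stimulated genes. Many such genes carry an interferon-stimulated response element (ISRE) in the promoter, the sequence bound by the transcription factor ISGF3 and by IRF proteins.

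Promoter sequence is shown for ISG15, HERC5 and HERC6, because the modifier and its ligase were both lower in KO cells and the HERC pair allows neighbouring relatives to be compared. The core ISRE letters GAAANNGAAA were searched on both strands, from 250 bases before to 50 bases after each RefSeq start site (GRCh38.p14), with overlapping matches counted. Of the 6 genes, 4 were matched to an entry by symbol: ISG15, UBE2L6, HERC5 and HERC6. The stretches below run 5′ to 3′ on the plus strand, the strand of all 3 genes, and leave out bases that GENCODE places in an exon of any transcript of the gene. For UBE2L6, which was also lower in KO cells, this rule left no bases to print at either start. Capitals mark the ISRE matches, which read GAAANNGAAA in ISG15 and the reverse complement TTTCNNTTTC in HERC5.
ISG15 promoter, chr1:1013247-1013422: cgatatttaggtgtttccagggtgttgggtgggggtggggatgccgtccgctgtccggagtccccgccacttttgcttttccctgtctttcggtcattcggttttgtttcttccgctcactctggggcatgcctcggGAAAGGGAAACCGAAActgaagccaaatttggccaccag
HERC5 promoter, chr4:88456869-88457116: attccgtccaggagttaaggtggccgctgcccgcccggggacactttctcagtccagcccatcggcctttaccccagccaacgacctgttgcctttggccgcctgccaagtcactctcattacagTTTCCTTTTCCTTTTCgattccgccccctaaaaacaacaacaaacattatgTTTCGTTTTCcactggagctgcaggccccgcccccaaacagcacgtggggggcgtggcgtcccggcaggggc
HERC6 promoter, chr4:88378602-88378738: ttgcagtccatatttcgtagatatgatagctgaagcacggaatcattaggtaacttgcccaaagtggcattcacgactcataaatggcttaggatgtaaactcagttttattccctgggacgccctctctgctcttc
ISG15 held 2 overlapping matches, at 113 to 104 and 107 to 98 bases before the start. HERC5 held 3 matches, a pair overlapping at 125 to 116 and 119 to 110 bases before the start and a single one at 74 to 65 bases. No match was found in the whole window of HERC6 or in the windows at either start of UBE2L6. Of all 35116 RefSeq promoter windows, 3.57% held at least 1 match, 0.259% at least 2 and 0.037% at least 3. Counted by gene, 3.92% of the 10233 tested genes with an entry held at least 1. The share was 28.7% of the 129 such genes lower in unirradiated KO cells (limma adjusted p under 0.05), the 4 members with an entry included. It was 6.38% of the 47 that were higher. The difference between these shares was not tested. These are matches of letters only, and binding was not measured.

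TMEM173, the symbol under which the STING gene is listed (ENSG00000184584.12, chr5:139475534-139482935, minus strand of GRCh38), was checked first. Its level was 21.7, 23.5 and 21.1 TPM in unirradiated WT libraries and 5.18, 5.29 and 6.96 TPM in unirradiated KO libraries. The irradiated libraries had 26.1, 21.4 and 21.7 TPM (WT) and 6.35, 7.41 and 7.08 TPM (KO). KO libraries lay below WT libraries without overlap in both arms, and KO means were 26.3% and 30.1% of the WT means, so transcript of the targeted gene was still measured in the KO line. RNA level does not show how much STING protein is left, and the study reports loss of the protein by immunoblot. The log2 fold change on the log2(TPM + 1) scale was -1.77 (limma, SE 0.11 and adjusted p = 1.2e-05) in unirradiated and -1.60 (limma, SE 0.11 and adjusted p = 2.0e-05) in irradiated cells. All 9 squamous epithelial markers examined, such as KRT5 and TP63, were at 1 TPM or more in every library. Of 6 leukocyte markers, 5 were under 1 TPM in every library, PTPRC and CD3E among them, and CD68 at 14.7 to 31.1 TPM made up nearly all of their summed 14.7 to 31.5 TPM. Of 6 fibroblast and endothelial markers, DCN, COL1A2, PDGFRB and PECAM1 were under 1 TPM in every library, and COL1A1 (6.34 to 9.23 TPM) and VWF (2.60 to 4.49 TPM) made up nearly all of their summed 9.29 to 12.6 TPM. TPM keeps no read depth, so the number of reads behind each value is unknown.

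The comparison of KO with WT in unirradiated cells asks how the machinery differs between the genotypes at baseline. ISG15, its conjugating enzyme UBE2L6 and both HERC genes were lower in KO cells, HERC5 by far the most, while the activating enzyme UBA7 overlapped between the genotypes. Of the 6 genes, 4 passed the test (limma on log2(TPM + 1) over all 15973 genes, Benjamini-Hochberg adjusted p under 0.05), all of them lower in KO, where 1.26% of all tested genes were lower and past the threshold. The KO libraries lay below the WT libraries without overlap for 5 of the 6, against 12.1% of all tested genes. The median log2 fold change of the 6 was -1.23, beside -0.02 for all tested genes. In bulk RNA, fewer cells that express a gene and less of its RNA per cell cannot be told apart.

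ISG15 (ENSG00000187608.8, chr1:1001138-1014540, plus strand), the modifier itself, was the most abundant of the 6 in every group. Its level was 334, 384 and 295 TPM in the unirradiated WT libraries and 68.9, 64.7 and 68.2 TPM in the unirradiated KO libraries. The lowest WT library lay far above the highest KO library, and the KO libraries were close together. The mean fell from 338 ± 44.4 TPM (SD, n = 3) in WT to 67.2 ± 2.24 TPM (SD, n = 3) in KO, which is 19.9% of the WT mean, with a log2 fold change of -2.30 (limma, SE 0.09 and adjusted p = 2.3e-07). Even so, ISG15 remained above the other 5 genes in KO cells, where it ranked 2800 by level among the tested genes, against 385 in WT. ISG15 lies next to HES4, which encodes a transcriptional repressor of the Hairy family and is read from the opposite strand. HES4 had a mean of 19.6 ± 2.66 TPM (SD, n = 3) in WT and 13.2 ± 1.21 TPM (SD, n = 3) in KO, a log2 fold change of -0.53 that missed the threshold (limma adjusted p = 0.060) but passed it without unirradiated WT replicate 1 (log2 fold change -0.64, limma adjusted p = 0.039) or when genes under a mean of 5 TPM were left out (limma adjusted p = 0.049). AGRN, which encodes the matrix protein agrin on the other side of ISG15, had a log2 fold change of 0.15 (limma adjusted p = 0.35).

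UBA7 (ENSG00000182179.12, chr3:49805207-49813946, minus strand), the E1 that activates ISG15, had the lowest level of the 6 in WT cells. Its level was 4.70, 3.46 and 2.48 TPM in the unirradiated WT libraries and 2.53, 2.77 and 3.06 TPM in the unirradiated KO libraries. The KO values lay inside the range of the WT values. Its log2 fold change was -0.24, with a 95% confidence interval from -0.69 to 0.22 (limma adjusted p = 0.67). At these low levels the pseudocount of 1 TPM makes log2 fold changes understate the change, and without it the log2 ratio of the means was -0.35. The interval therefore cannot be set against the decrease of UBE2L6, a gene at a much higher level.

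UBE2L6 (ENSG00000156587.15, chr11:57551656-57568284, minus strand), the E2 that carries ISG15 to its ligase, fell least among the genes that passed the test. Its level was 102, 108 and 97.4 TPM in the unirradiated WT libraries and 57.9, 63.2 and 63.8 TPM in the unirradiated KO libraries. All WT libraries were above all KO libraries, and each group was tight. The mean fell from 103 ± 5.35 TPM (SD, n = 3) to 61.6 ± 3.21 TPM (SD, n = 3), 60.1% of the WT mean, with a log2 fold change of -0.73 (limma, SE 0.06 and adjusted p = 0.00011).

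HERC5 (ENSG00000138646.8, chr4:88457117-88506163, plus strand), the main human ligase for ISG15, was nearly lost in KO cells. Its level was 83.0, 85.0 and 62.9 TPM in the unirradiated WT libraries and 0.871, 1.24 and 1.26 TPM in the unirradiated KO libraries. The KO mean of 1.13 ± 0.22 TPM (SD, n = 3) was 1.46% of the WT mean of 77.0 ± 12.2 TPM (SD, n = 3), a 68.4-fold difference in TPM. The log2 fold change on the log2(TPM + 1) scale was -5.19 (limma, SE 0.13 and adjusted p = 6.7e-09), which placed HERC5 at rank 2 from the lowest of all tested genes. In the order of levels HERC5 stood at rank 3 of the 6 in unirradiated WT cells and at rank 6 in unirradiated KO cells, below UBA7.

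HERC6 (ENSG00000138642.14, chr4:88378739-88443111, plus strand) ends 14006 bases before HERC5 begins, on the same strand. Its level was 34.0, 34.8 and 27.4 TPM in the unirradiated WT libraries and 8.91, 8.998 and 8.70 TPM in the unirradiated KO libraries. The groups did not overlap, but unlike its neighbour HERC6 kept a clearly measurable level, at 27.7% of the WT mean. Its log2 fold change was -1.74 (limma, SE 0.10 and adjusted p = 7.9e-06). On the far side of HERC5, the nearest tested gene PYURF was at 141 ± 5.22 TPM (SD, n = 3) in WT and 141 ± 8.20 TPM (SD, n = 3) in KO. On the far side of HERC6, the nearest tested gene was PPM1K, a mitochondrial phosphatase gene 93970 bases away, at 3.89 ± 0.89 TPM (SD, n = 3) in WT and 1.01 ± 0.32 TPM (SD, n = 3) in KO. PPM1K had a log2 fold change of -1.28 (limma, SE 0.18 and adjusted p = 0.0049), and none of the tested genes that flank the other members passed the test in unirradiated cells.

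USP18 (ENSG00000184979.9, chr22:18149899-18177397, plus strand), the protease that removes ISG15, was the member nearest to the threshold. Its level was 8.69, 9.13 and 6.64 TPM in the unirradiated WT libraries and 5.73, 5.04 and 6.09 TPM in the unirradiated KO libraries. The groups did not overlap, but the lowest WT library, replicate 3, lay close to the highest KO library. The log2 fold change was -0.46, with a 95% confidence interval from -0.71 to -0.21, and missed the threshold (limma adjusted p = 0.087). Without unirradiated WT replicate 3 it was -0.59 and passed (limma adjusted p = 0.020). USP41, a near-identical copy of USP18 on the same chromosome, was listed at 0 in 11 libraries and at 0.293 TPM in irradiated KO replicate 2, and how reads shared by the copies were assigned is not given in the sources used here.

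**Figure D1:**
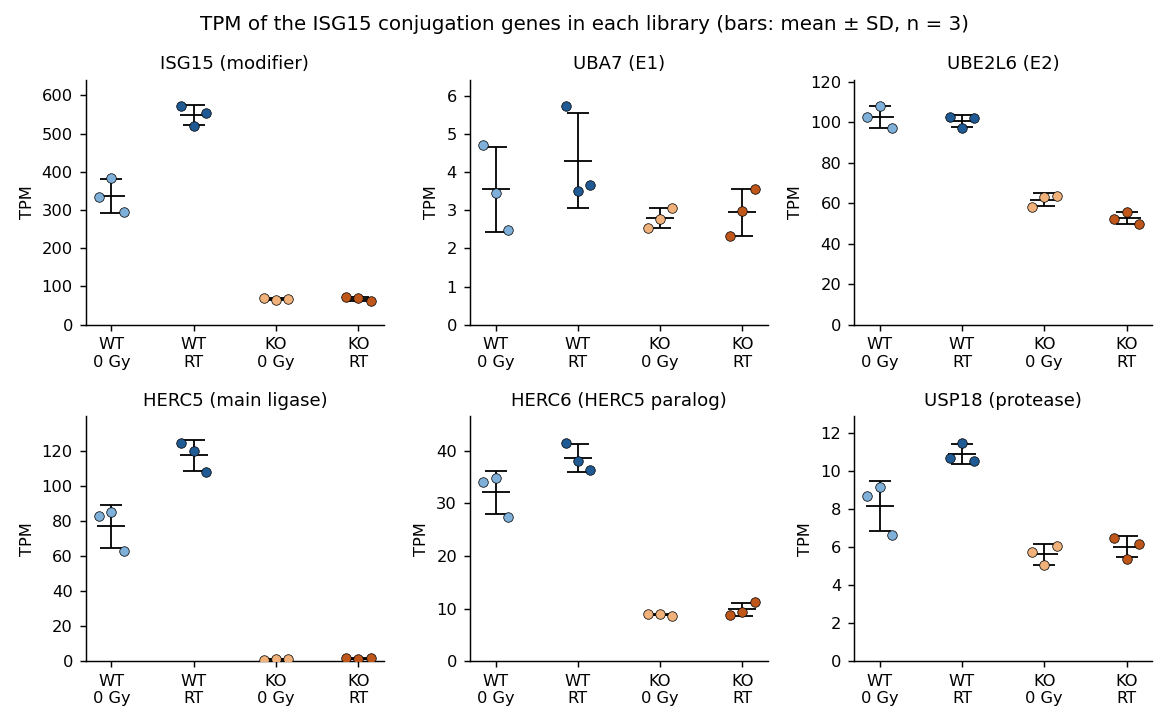
Level of each of the 6 genes in TPM (vertical axes, each from 0) in the 4 groups of FaDu cells (horizontal axes). Points are single libraries, the horizontal bar is the mean and the whiskers are 1 SD of 3 libraries; ISG15, UBE2L6, HERC5, HERC6 and, by a narrow gap, USP18 lie lower in every KO library than in any WT library, whereas the points of UBA7 overlap between the genotypes.

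The same comparison in irradiated cells asks whether the machinery differs between the genotypes after DNA damage. ISG15, UBE2L6, HERC5 and HERC6 were again lower in KO, and USP18, the deconjugating protease, now passed the test as well. That made 5 of the 6 genes lower and past the threshold, beside 2.66% of all tested genes. The groups did not overlap for those 5 genes, beside 14.5% of all tested genes, and the median log2 fold change of the 6 was -1.40, beside -0.02 for all tested genes. Each KO effect is read against its own WT group, so the means compared in unirradiated and irradiated cells share no libraries. Their tests are not independent, because the fit estimates a shared spread from all 12 libraries.

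ISG15 was at 572, 519 and 553 TPM in irradiated WT cells, against 71.9, 68.6 and 62.9 TPM in irradiated KO cells. The gap between the genotypes was 8.09-fold in means, compared with 5.02-fold in unirradiated cells, and the log2 fold change was -2.998 (limma, SE 0.09 and adjusted p = 1.6e-08). HERC5 was at 125, 120 and 108 TPM in WT and at 1.73, 1.36 and 1.87 TPM in KO after radiation. Its KO mean was 1.41% of the WT mean, with a log2 fold change of -5.48 (limma, SE 0.13 and adjusted p = 3.8e-09).

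UBE2L6 was at 103, 97.1 and 102 TPM in irradiated WT and at 52.1, 55.9 and 49.9 TPM in irradiated KO libraries, with a log2 fold change of -0.92 (limma, SE 0.06 and adjusted p = 1.2e-05). HERC6 was at 41.5, 38.0 and 36.2 TPM in WT and at 8.90, 9.41 and 11.2 TPM in KO, with a log2 fold change of -1.87 (limma, SE 0.10 and adjusted p = 3.6e-06). Neither gene overlapped between the genotypes. USP18 was at 10.7, 11.5 and 10.5 TPM in WT and at 6.47, 5.39 and 6.17 TPM in KO, a log2 fold change of -0.77 (limma, SE 0.11 and adjusted p = 0.0046). Here every WT library stood well above every KO library, in contrast to the narrow gap in unirradiated cells.

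UBA7 was at 5.73, 3.50 and 3.66 TPM in irradiated WT libraries and at 2.33, 2.97 and 3.56 TPM in irradiated KO libraries. The groups overlapped by 1 library on each side, and the log2 fold change of -0.41 had a 95% confidence interval from -0.87 to 0.05 (limma adjusted p = 0.34). HES4, beside ISG15, passed the test in irradiated cells, with a log2 fold change of -0.74 (limma, SE 0.12 and adjusted p = 0.0077), as did PPM1K, beside HERC6, with -1.71 (limma, SE 0.18 and adjusted p = 0.00046).

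Radiation in WT cells asks whether fractionated treatment raises the machinery where STING is present. ISG15 and HERC5 rose, which made 2 of the 6 genes past the threshold, both higher, beside 2.24% of all tested genes. The WT libraries did not overlap between 0 Gy and RT for 4 of the 6 genes, all higher after radiation, beside 14.7% of all tested genes. The median log2 fold change of the 6 was 0.33, beside 0.02 for all tested genes.

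ISG15 rose from a mean of 338 to 548 ± 26.7 TPM (SD, n = 3), 1.62-fold, and its lowest irradiated library (519 TPM) lay above its highest unirradiated library (384 TPM). Its log2 fold change was 0.70 (limma, SE 0.09 and adjusted p = 0.0019), and it moved ISG15 from rank 385 to rank 225 by level. HERC5 rose 1.53-fold, from 77.0 to 117 ± 8.75 TPM (SD, n = 3), with a log2 fold change of 0.61 (limma, SE 0.13 and adjusted p = 0.032). After radiation HERC5 stood above UBE2L6 in WT cells, without overlap, whereas in unirradiated WT cells it stood below. The call for HERC5 was close to the threshold: it was lost without unirradiated WT replicate 1 or 3 (limma adjusted p = 0.058 and 0.074) and without irradiated WT replicate 1, 2 or 3 (limma adjusted p = 0.11, 0.099 and 0.056). Its log2 fold change stayed between 0.48 and 0.69 across these.

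USP18 and HERC6 were also higher in every irradiated WT library than in any unirradiated one, but did not pass the test. USP18 had a log2 fold change of 0.39 (95% confidence interval 0.13 to 0.64, limma adjusted p = 0.10) and HERC6 of 0.27 (95% confidence interval 0.03 to 0.50, limma adjusted p = 0.21). UBE2L6 overlapped between the arms, with means of 103 and 101 TPM, a log2 fold change of -0.03 and a 95% confidence interval from -0.16 to 0.11 (limma adjusted p = 0.88). UBA7 overlapped as well, with a log2 fold change of 0.22 and a 95% confidence interval from -0.23 to 0.68 (limma adjusted p = 0.64). The interval of UBE2L6 leaves out a rise of the size seen for ISG15 or HERC5. That of UBA7 cannot be set against those rises, since the pseudocount shrinks log2 fold changes at its low level.

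Radiation in KO cells asks what is left of that response in the KO line. None of the 6 genes passed the limma test, beside 3.69% of all tested genes in either direction. Before adjustment 2 of the 6, UBE2L6 and HERC5, had a limma p under the threshold, in opposite directions, beside 18.1% of all tested genes. ISG15 had nearly equal means of 67.2 and 67.8 TPM, with a log2 fold change of 0.01 and a 95% confidence interval from -0.18 to 0.20 (limma adjusted p = 0.97). That interval lies wholly below the interval of the rise in WT cells, which ran from 0.51 to 0.90.

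HERC5 in KO cells was at 0.871, 1.24 and 1.26 TPM before and 1.73, 1.36 and 1.87 TPM after radiation. Every irradiated library was above every unirradiated one (beside 13.7% of all tested genes that were higher without overlap), and the means differed 1.47-fold, near the 1.53-fold of WT cells, but around a level of little more than 1 TPM. Its log2 fold change of 0.32 did not pass the test (limma, SE 0.13 and adjusted p = 0.22). UBE2L6 was lower in every irradiated KO library than in any unirradiated one (beside 10.6% of all tested genes), with means of 61.6 and 52.6 TPM and a log2 fold change of -0.22 (limma, SE 0.06 and adjusted p = 0.072). UBA7, HERC6 and USP18 overlapped between the arms, with log2 fold changes of 0.05, 0.13 and 0.08.

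The difference between the radiation effects, KO minus WT, was negative for all 6 genes, with a median of -0.25, but none passed the test across all genes, where 3 of 15973 (0.0188%) did. Since both KO effects and both radiation effects use the same 4 groups, this sign is not a separate piece of evidence. ISG15 had the largest difference among the 6, at -0.69 with a 95% confidence interval from -0.97 to -0.42 and an unadjusted p of 0.00020 (limma adjusted p = 0.27). UBE2L6, with a difference of -0.20 (limma adjusted p = 0.74), was the other member whose p was under the threshold before adjustment, beside 6.61% of all tested genes. The difference was -0.29 for HERC5 (limma adjusted p = 0.85) and -0.30 for USP18 (limma adjusted p = 0.80), with intervals that included 0.

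**Figure D2:**
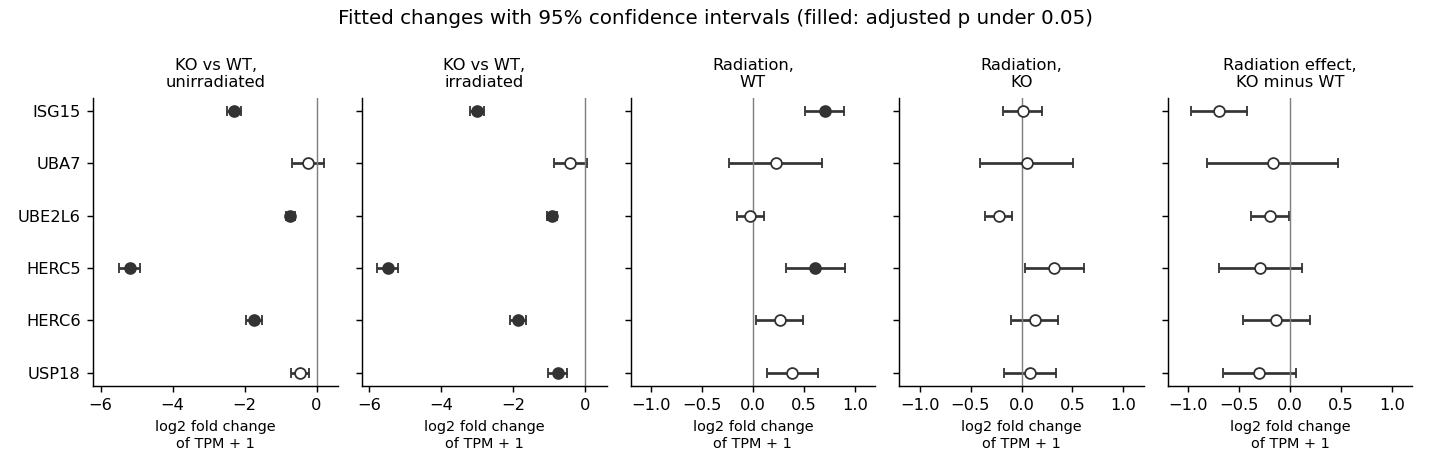
Log2 fold change of TPM + 1 (horizontal axes) of each gene (vertical axis) in the 5 contrasts, from the limma fit to 12 libraries, with 95% confidence intervals. Filled points passed an adjusted p of 0.05; the KO effects reach -5.19 and -5.48 for HERC5, and their axes span more than those of the radiation effects, where only ISG15 (0.70) and HERC5 (0.61) in WT cells passed.

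The members changed by such different amounts that their proportions shifted. The summed level of the 6 genes was 561 ± 66.3 TPM (SD, n = 3) in unirradiated WT, 147 ± 3.30 TPM in unirradiated KO, 820 ± 34.4 TPM in irradiated WT and 141 ± 4.49 TPM in irradiated KO cells. ISG15 made up 60.2% ± 1.29 (SD, n = 3), 45.7% ± 1.68, 66.8% ± 1.11 and 48.1% ± 1.90 of that sum in the same order. The order of levels in WT cells at 0 Gy was ISG15, UBE2L6, HERC5, HERC6, USP18 and UBA7, and in KO cells in both arms it was ISG15, UBE2L6, HERC6, USP18, UBA7 and HERC5. In none of the 4 groups did neighbours in the order overlap between libraries.

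The HERC5 to HERC6 ratio compares the human ligase with its neighbouring relative within each library, so it does not depend on any scaling between libraries. It was 2.44, 2.45 and 2.29 in unirradiated WT and 0.0977, 0.138 and 0.145 in unirradiated KO libraries. HERC5 exceeded HERC6 in every WT library and was below it in every KO library, so the pair exchanged order. The ratio was 19.1-fold lower in KO (exact permutation p = 0.10, 2-sided, the lowest value possible with groups of 3). The irradiated WT libraries had ratios of 3.003, 3.16 and 2.97 and the irradiated KO libraries 0.194, 0.144 and 0.167, an 18.2-fold difference (exact permutation p = 0.10). Within WT cells the ratio was 1.27-fold higher after radiation without overlap (exact permutation p = 0.10), and within KO cells the arms overlapped (exact permutation p = 0.20).

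The ISG15 to USP18 ratio sets the modifier against the protease that removes it. It was 38.4, 42.1 and 44.5 in unirradiated WT and 12.03, 12.8 and 11.2 in unirradiated KO libraries, 3.46-fold lower in KO without overlap (exact permutation p = 0.10). The irradiated WT libraries had ratios of 53.5, 45.2 and 52.6 and the irradiated KO libraries 11.1, 12.7 and 10.2, a 4.45-fold difference (exact permutation p = 0.10). The WT mean was 41.6 before and 50.4 after radiation, with the highest unirradiated library (44.5) just under the lowest irradiated one (45.2; exact permutation p = 0.10), and the KO libraries overlapped between the arms (exact permutation p = 0.40).

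The ISG15 to UBA7 ratio, the modifier against its activating enzyme, was 100 ± 25.8 (SD, n = 3) in unirradiated WT and 24.3 ± 2.59 in unirradiated KO cells, and 133 ± 28.9 in irradiated WT and 23.9 ± 6.65 in irradiated KO cells. The genotypes did not overlap in either arm (exact permutation p = 0.10 each), while both radiation comparisons overlapped (exact permutation p = 0.30 in WT and 0.90 in KO). The ratio was lowest in replicate 1 of both WT groups, the libraries in which UBA7 was highest.

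**Figure D3:**
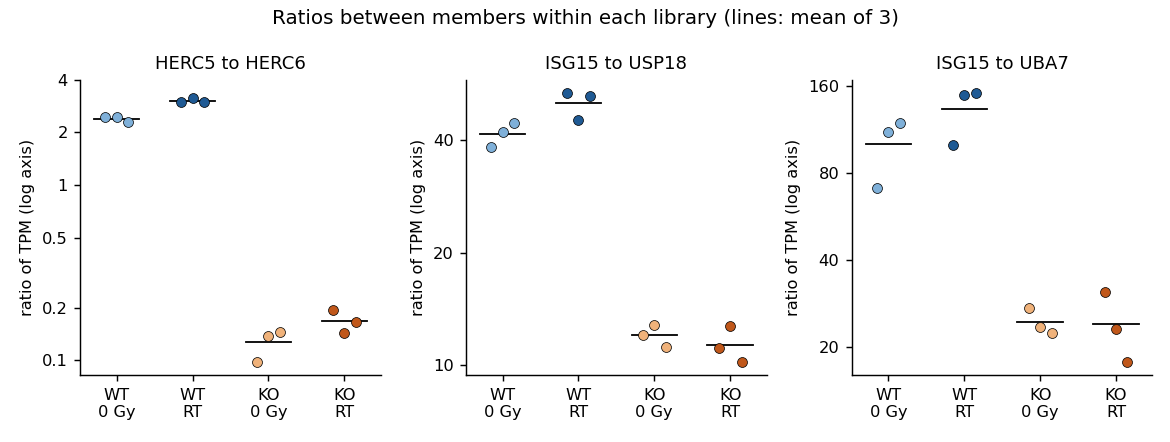
Ratio of TPM between pairs of members within each library (vertical axes, log scale) in the 4 groups (horizontal axes), with a line at the mean of 3 libraries. The HERC5 to HERC6 ratio lies above 2 in all WT libraries and below 0.2 in all KO libraries, and the ISG15 ratios are also lower in every KO library than in any WT library.

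The decrease was next set beside the parallel cascades of ubiquitin and its other relatives. In unirradiated cells, where 1.73% of all tested genes passed in either direction, none passed among 9 other E1 enzymes and E1 subunits (UBA1, UBA6, SAE1 and NAE1 among them), 8 other E2 enzymes including UBE2L3, the closest relative of UBE2L6, 4 other HERC genes (HERC1 to HERC4) or 12 tested genes of ubiquitin and other modifiers. Before adjustment limma gave 1 E1 gene, 1 modifier gene and 0 of the other E2 and HERC genes a p under the threshold, beside 14.3% of all tested genes. The median log2 fold changes of these lists were -0.03, 0.08, 0.02 and -0.04, beside -0.02 for all tested genes. UBE2L3 had a log2 fold change of 0.09 (limma adjusted p = 0.41), where UBE2L6 had -0.73. HERC3, which lies on the same chromosome as HERC5 and HERC6, had -0.06 (limma adjusted p = 0.83). In irradiated cells the only gene of these lists past the threshold was SUMO2, with a small decrease of -0.20 (limma adjusted p = 0.017), and the modifier list held no call without irradiated WT replicate 1 or 2 or irradiated KO replicate 3.

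Other enzymes reported to act on ISG15 were also examined: TRIM25 and ARIH1, which can serve as ligases, the E2 enzymes UBE2E1 and UBE2E2, and proteases that can cleave ISG15 besides ubiquitin, such as USP5, USP14, USP16 and USP21. Of 12 genes on this list 10 were tested, and none passed the test in either arm (beside 1.73% and 3.59% of all tested genes), although before adjustment limma gave 2 and 1 of them a p under the threshold (beside 14.3% and 17.9%), with median log2 fold changes of -0.0012 in unirradiated and 0.02 in irradiated cells. TRIM25, itself interferon-stimulated, came closest, with -0.23 (limma adjusted p = 0.071) and -0.22 (limma adjusted p = 0.056). In irradiated cells it passed when unirradiated WT replicate 3 (limma adjusted p = 0.045) or genes under a mean of 5 TPM (limma adjusted p = 0.044) were left out.

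**Figure D4:**
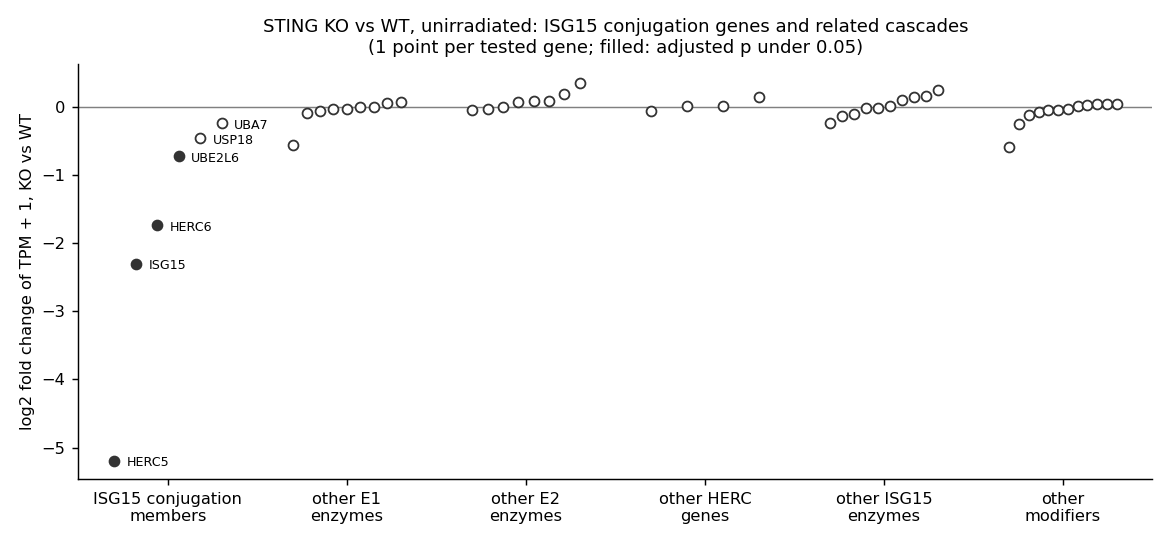
Log2 fold change of TPM + 1 for STING KO against WT in unirradiated cells (vertical axis), with 1 point per tested gene, for the 6 members and for related lists (horizontal axis). Filled points passed an adjusted p of 0.05; they are HERC5, ISG15, HERC6 and UBE2L6, while all other points lie between -0.59 (URM1) and 0.36 (UBE2N).

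Proteins reported to carry ISG15 as a conjugate were examined at the RNA level with a list of 27 genes, all tested. In unirradiated cells 7 were past the threshold, all lower in KO, beside 1.26% of all tested genes, and the other 20 were not, with a list median of -0.11. The 4 largest decreases were those of IFIT3 (-3.99, limma adjusted p = 2.3e-07), DDX58 (-2.94, limma adjusted p = 2.3e-07), MX1 (-2.74, limma adjusted p = 6.6e-06) and IFIT1 (-2.37, limma adjusted p = 6.0e-07), which are themselves interferon-stimulated: DDX58 encodes the RNA sensor RIG-I and MX1 an antiviral GTPase. IFIH1 and EIF2AK2 were also among the 7. PCNA, a carrier that is not known as interferon-stimulated, did not pass (-0.0013, limma adjusted p = 0.997). In irradiated cells 9 of the 27, now including STAT2 and ADAR, were lower and past the threshold, beside 2.66% of all tested genes. Radiation in WT cells raised 3 of the 27, MX1, DDX58 and IFIT1, beside 2.24% of all tested genes, and 0 when only the 6 WT libraries were fitted. In KO cells none passed the limma test after radiation. Before adjustment 5 of the 27 did, near the 18.1% of all tested genes.

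Part of the ISGF3 route, which drives ISRE-bearing genes, was lower. Of 10 genes from receptor to transcription factor (list median -0.07), 3 were lower and past the threshold in unirradiated KO cells, beside 1.26% of all tested genes. Among the 3 were IRF9 (-1.19, limma SE 0.18 and adjusted p = 0.0057), the DNA-binding subunit of ISGF3, and IRF7 (-0.82, limma adjusted p = 0.012), which amplifies interferon production. The call for IRF7 was lost without unirradiated WT replicate 1 or 2 or KO replicate 1 or 2 (limma adjusted p = 0.051 to 0.055). In irradiated cells 4 of the 10 were lower and past the threshold, beside 2.66% of all tested genes. STAT2 was now among the 4 (-0.38, limma adjusted p = 0.048). The receptor chains IFNAR1 (0.05) and IFNAR2 (-0.09), the kinases JAK1 (0.05) and TYK2 (0.06), and TBK1 (0.01) and IRF3 (-0.06), which act directly below STING, did not pass in unirradiated cells.

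Across the 12 libraries the 6 genes differed in how closely they followed each other. Pearson's r of log2(TPM + 1) was 0.989 to 0.996 among ISG15, HERC5 and HERC6, 0.950 to 0.960 between UBE2L6 and these 3, and 0.902 to 0.929 between USP18 and these 3. UBA7 had r of 0.564 to 0.679 with the other 5. These values describe 12 libraries in 4 groups and mostly reflect the gap between the genotypes.

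The tested genes with the highest r to each member were named for likeness of pattern alone. For HERC5 they were IFIT2 (0.998), OASL (0.997) and IFIT3 (0.996), and for ISG15 they were RSAD2 (0.998), FGF2 (0.997) and DDX58 (0.996). HERC6 was followed most closely by its neighbour HERC5 (0.996), then by ZC3HAV1 (0.995) and CMPK2 (0.995). UBE2L6 was most like RARRES3 (0.988), CNNM1 (0.981) and APOL6 (0.981), which had small radiation effects in WT cells (log2 fold changes of 0.10, -0.06 and -0.10). USP18 was most like PANX1 (0.969), CTSL (0.967) and HELZ2 (0.964), and UBA7 was most like TNNT3 (0.902), TSPYL4 (0.900) and IFT20 (0.900).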

How the data were processed

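RNA from 12 FaDu libraries was sequenced as 100 bp paired ends. The authors deposited transcripts per 1000000 (TPM) per gene, unfiltered, each library summing to 1000000, with no scaling between libraries. The submitters' processing notes name HISAT2, StringTie, DESeq2 and hg38, and the annotation is not given in the sources used here. Table columns carry line names in place of WT and KO. They were mapped by the study's table of the same values, in which all 36 values of 3 members were equal within 0.001.

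From the deposited TPM, log2(TPM + 1) was fitted with limma 3.58.1 (R 4.3.3; 4 group means, 12 libraries, eBayes with trend) for 15973 genes with TPM of at least 1 in 3 or more libraries. Adjusted p-values (Benjamini-Hochberg, threshold 0.05) cover all tested genes. The authors ran DESeq2, which needs counts. Ratios of TPM were compared by 2-sided exact permutation tests on log2 ratios. The code was tested on simulated data. Positions are from GENCODE 29 on GRCh38, matched by identifier (the version of ISG15 differs).

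Members and lists were chosen with earlier results of these data known. Named were the 6 members, TMEM173, up to 4 list genes past the threshold with the largest KO effects, the 3 genes most like each member by r, flanking genes and a near-identical copy; other list genes were named after their values were seen. Alternatives were a pseudocount of 0.1, no filter, a minimum mean TPM of 5, quantile normalization, median-of-ratios factors, no trend in eBayes, a replicate block, fits to just the 6 libraries compared, omission of each library and, for ratios, a pseudocount of 1. Results of some list genes are not reported here.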

Additional observations from a re-analysis of the deposited data

How the results depend on the processing

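The KO effects on the members depended little on the processing. In unirradiated cells 4 or 5 members passed under all 20 alternatives, and in irradiated cells 5 passed under all 20. The log2 fold change of HERC5 in unirradiated cells ranged from -5.98 (pseudocount of 0.1) to -5.10, and that of ISG15 from -2.40 to -2.21. For radiation in WT cells ISG15 passed under all 20 alternatives and HERC5 under 11. The number of members past the threshold fell from 2 to 1 with a pseudocount of 0.1, with no filter on low values, with only the 6 libraries compared and with the replicate block, and lay between 1 and 2 with each library left out. For radiation in KO cells it rose from 0 to 1 with median-of-ratios factors (UBE2L6, log2 fold change -0.24, limma adjusted p = 0.040).

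Values near 0 changed sign. With median-of-ratios factors the radiation effect on ISG15 in KO cells was -0.0097, and with each library left out it ranged from -0.0326 to 0.0619. Under the same omissions the radiation effect on UBE2L6 in WT cells ranged from -0.0628 to 0.0117, that on UBA7 in KO cells from -0.0565 to 0.17, and the difference for UBA7 from -0.35 to 0.013. With a pseudocount of 1 the log2 KO effect on the HERC5 to HERC6 ratio was -3.45 in unirradiated and -3.61 in irradiated cells, instead of -4.26 and -4.19, since HERC5 in KO cells is near 1 TPM.

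Counts over all genes varied more. Fitting only the 6 libraries compared gave 103, 252, 166 and 195 genes for the KO effects in unirradiated and irradiated cells and the radiation effects in WT and KO cells, instead of 276, 573, 597 and 590. With each library left out the counts ranged from 172 to 292, 313 to 542, 242 to 526 and 268 to 553. The replicate block gave 378, 315 and 359 genes for the last 3 of these. For the difference between the radiation effects the count of 3 was 1 with the replicate block, 1 with eBayes without trend, 7 with no filter and 1 to 9 with each library left out. With the replicate block HERC5 lost its call for radiation in WT cells (limma adjusted p = 0.071). Deviations of same-numbered libraries from their group means had correlations of -0.06 to 0.064. These gave no sign of pairing by number but cannot exclude it. IFIH1, EIF2AK2, IRF7 and PPM1K lost their calls in unirradiated cells when only 6 libraries were fitted (limma adjusted p = 0.091, 0.068, 0.091 and 0.057).

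The deposited TPM hold no read counts, so low values such as UBA7, or HERC5 in KO cells, carry no counting interval. WT and KO are single lines, and 3 libraries against 3 cannot give an exact p under 0.1.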
